A study of Felis catus with 12 samples.

Results

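Left ventricular RNA of 4 cats with high myocardial fibrosis was compared with that of 4 cats with low myocardial fibrosis, using 8 of the 12 libraries of the series. Myocardial fibrosis is the collagen-stained share of the collagen and cardiomyocyte area in a trichrome section, once large fibrous areas at the inner and outer borders that join the papillary muscles are left out. It ranged from 6.6% to 11.58% in the high fibrosis group (cats 10, 11, 15 and 23) and from 2.42% to 4.66% in the low fibrosis group (cats 30, 35, 36 and 38). The cats nearest to the gap between the groups had 6.6% and 4.66%. The percentage was measured over a whole midventricular slice that held the left ventricle, the right ventricle and the septum. RNA came from left ventricular free wall next to that slice, so the percentage and the RNA describe different tissue. No RNA value of a library entered the rule that formed the groups, but the groups were chosen with earlier results of these data known. The other 4 libraries were used in no comparison. The percentage of cat 22 lies within the high fibrosis range, but the labels and the study differ on whether cats 22 and 29 were among those sequenced, and the libraries that carry these labels were in neither group.

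All 8 hearts came from domestic cats that had died or been euthanized, were collected after death, and gave 1 library each. In the high fibrosis group, cat 10 (domestic short hair, 8 years, neutered male) and cat 23 (domestic short hair, 13 years, neutered female) had arterial thromboembolism (ATE). Cat 11 (Birman, 4 years, neutered male) and cat 15 (Maine Coon, 14 years, neutered male) had congestive heart failure (HF) without ATE. In the low fibrosis group, cat 30 (domestic short hair, 18 years, neutered female) and cat 35 (Maine Coon, age and sex not recorded) had congestive HF. Cat 38 (domestic short hair, 5 years, neutered male) had ATE, and cat 36 (domestic short hair, 2 years, neutered female) had no known cardiac cause of death. No group had received an experimental treatment, and medication was not used here. Age did not separate the groups (exact permutation p = 0.857, two-sided, 7 cats with an age). The cats are a spontaneous disease cohort, so breed, age, sex and outcome vary inside both groups.

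Myocardial fibrosis is the accumulation of collagen and other matrix proteins between cardiomyocytes. Fibroblasts and myofibroblasts make most of this matrix, transforming growth factor beta (TGF-beta) is the best known signal that drives them, and proteases with their inhibitors set how fast it is turned over. A section shows the collagen that has built up over time, whereas messenger RNA shows genes in use nearer to the time of sampling. The carcasses were stored cold before processing, and cat 15 was found dead. The time from death to sampling and the RNA quality of each heart were not used here, so changes after death were not assessed. In bulk tissue RNA, fewer cells of a type and less RNA per cell cannot be told apart.

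RNA was read directly, without a copy into cDNA, on Nanopore flow cells, and the values are reads per gene scaled by 1 size factor per library, called scaled reads here. The 8 libraries held 789257 to 2263110 reads on genes and 12241 to 13987 genes with a read, and neither measure separated the groups (exact permutation p = 0.571 and 0.4, two-sided; the smallest p that 4 against 4 allows is 0.0286). Genes of ventricular cardiomyocytes took 15.7% to 27.1% of the reads in each library, so the labelled tissue was borne out. By the library names, cats 11, 23 and 30 were on flow cell A, cats 10, 15, 35 and 36 on flow cell B, and cat 38 on flow cell C. Only flow cell B held 2 cats of each group. Cat 11 stood apart: its median Spearman's rho with the other libraries over the tested genes was 0.795, against 0.840 to 0.859 for the other 7. On the first principal component (29.9% of the variance), the lowest and highest libraries were cat 15 (-51.31) and cat 11 (64.69), both from the high fibrosis group. This component also divided the libraries by flow cell. Cats 11, 23 and 30 of flow cell A were at 64.69, 27.43 and 17.52, and the cats of flow cells B and C between -51.31 and -12.3. Libraries of the same group (median rho 0.851) were no more alike than libraries of different groups (0.849). The median rho was 0.856 within a flow cell and 0.840 between flow cells.

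No gene passed the adjusted threshold. Of the 8400 genes that reached 10 reads in 3 or more of the 8 libraries, limma called 0 genes at an adjusted p under 0.05 (0%; smallest adjusted p 1.0). At an unadjusted p under 0.05 it gave 203 genes (2.42%), with 84 higher (1.0%) and 119 lower (1.42%) with high fibrosis. Where no gene differs, this threshold gives a share of about 0.05, so the count is no excess. Both count tests on the recovered reads also called 0 genes, edgeR with 230 and DESeq2 with 238 at an unadjusted p under 0.05. The median log2 difference over all genes was -0.02, with 4038 genes above 0 and 4362 below. Without the scaling by library size this median was -0.30, and 7 genes were higher and 216 lower at an unadjusted p under 0.05 (3.14% higher, against 41.4% with the scaling). All differences below are high minus low fibrosis on the log2(scaled reads + 1) scale, where 1 is a doubling. The median standard error was 0.40, and the unadjusted 95% interval of a single gene was narrower than 1 to either side for 5541 genes (66.0%). For the other genes a doubling could not be told from no difference even by this interval. The adjusted threshold is stricter: 299 genes had a difference beyond a doubling in either direction, and none of them passed it. With 4 cats a group, a p above the threshold does not show that the groups were alike.

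The 4 values of a group lay wholly above those of the other for 152 genes, 76 higher (0.905%) and 76 lower (0.905%) with high fibrosis. If the groups were arbitrary, a share of about 0.0286 of genes would be apart in 1 or the other direction, so this count is no excess. Among the 152 genes, those with a gene symbol and a mean of at least 20 reads were ranked, and the 12 with the smallest unadjusted p in each direction are described. They were picked by this contrast, so their differences describe these 8 cats and are no test.

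Among the 12 genes higher with high fibrosis, the largest log2 difference was that of INHBB, which encodes the beta subunit of activin B, a ligand of the TGF-beta superfamily. It had 23.7, 22.2, 49.0 and 44.3 scaled reads in cats 10, 11, 15 and 23 and 16.0, 9.45, 6.23 and 14 in cats 30, 35, 36 and 38. Every cat with high fibrosis was above every cat with low fibrosis, and the log2 difference was 1.52 (SE 0.40, limma unadjusted p = 0.00255), 0.93 within flow cell A and 2.01 within flow cell B. EED, a core subunit of Polycomb repressive complex 2 (PRC2), had 44.0, 71.9, 61.3 and 69.8 scaled reads with high fibrosis and 25.3, 22.8, 43.6 and 14.7 with low fibrosis, in the same order of cats. Cat 10 with high and cat 36 with low fibrosis almost touched, and the log2 difference was 1.26 (SE 0.35). MAP3K7, the kinase TAK1 that acts below TGF-beta and interleukin-1 receptors, had 32.7, 32.3, 25.9 and 44.3 against 16.0, 22.8, 21.4 and 15.4 (log2 difference 0.80, SE 0.31).

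ZFYVE16, an endosomal protein that binds SMAD proteins, had 48.5, 36.2, 46.3 and 28.2 scaled reads with high fibrosis and 20.2, 18.9, 20.5 and 24.3 with low fibrosis. Its log2 difference was 0.87 (SE 0.30). DGKZ, a kinase that removes the messenger lipid diacylglycerol, had 28.2, 32.8, 44.9 and 32.2 against 11.8, 15, 21.4 and 19.9 (log2 difference 1.0, SE 0.32). SLC1A1, a glutamate and cysteine transporter, ranged from 17.7 to 43.4 with high fibrosis and from 6.30 to 17.7 with low fibrosis, so the groups met at cats 15 and 30. The remaining 6 were KCTD9, RMND5B, PDCD2L, PDCD2, KCTD3 and ALKBH3, with log2 differences of 0.98, 1.0, 1.13, 0.89, 0.88 and 0.81. PDCD2 and PDCD2L are related proteins with a part in making ribosomes, and RMND5B belongs to a ubiquitin ligase complex. The highest group mean among these 12 genes was 61.7 scaled reads (EED, high fibrosis), so each value rests on few reads.

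Among the 12 genes lower with high fibrosis, MAPK14 had the smallest unadjusted p. It encodes the stress kinase p38 alpha. Its scaled reads were 3.38, 9.65, 8.17 and 8.06 in cats 10, 11, 15 and 23, against 21.9, 18.9, 22.3 and 39.0 in cats 30, 35, 36 and 38. The lowest value with low fibrosis was thus well above the highest with high fibrosis, and the log2 difference was -1.69 (SE 0.42, limma unadjusted p = 0.00143), -1.22 within flow cell A and -1.76 within flow cell B. VCAM1, an adhesion molecule that binds white blood cells, had 197, 101, 177 and 158 scaled reads with high fibrosis and 317, 455, 364 and 227 with low fibrosis. These groups too were apart, with a log2 difference of -1.10 (SE 0.30), -1.32 within flow cell A and -1.12 within flow cell B.

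FBLN1, the matrix glycoprotein fibulin-1, had 127, 97.5, 83.1 and 184 scaled reads with high fibrosis and 188, 218, 255 and 218 with low fibrosis. Cats 23 and 30 nearly met, and the log2 difference was -0.89 (SE 0.29). MYLK3, the cardiac kinase of the myosin regulatory light chain, had 558, 133, 855 and 377 against 858, 989, 864 and 946. Cat 15 lay next to the low fibrosis group and cat 11 far below it, and the log2 difference was -1.21 (SE 0.46), -1.93 within flow cell A and -0.42 within flow cell B. EFNA5, an ephrin ligand that guides cell contacts, had 47.3, 53.1, 53.1 and 75.2 against 138, 126, 135 and 88.2 (log2 difference -1.08, SE 0.28). CDO1, which breaks down cysteine, ranged from 37.6 in cat 11 to 304 in cat 15 with high fibrosis and from 311 to 647 with low fibrosis (log2 difference -1.47, SE 0.55). Without cat 11, the log2 difference of CDO1 was -0.80 and the log2 difference of MYLK3 was -0.69.

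The remaining 6 were LRRCC1, ARHGAP44, RNASET2, OSBPL11, EPM2A and CROT, with log2 differences of -1.66, -1.14, -1.29, -1.20, -1.14 and -0.79. EPM2A encodes laforin, a phosphatase that acts on glycogen, and CROT is a carnitine acyltransferase of peroxisomes. OSBPL11 was at 50.4 scaled reads in cat 35 and between 19.1 and 23.6 in the other 3 cats with low fibrosis. Of the 203 genes at an unadjusted p under 0.05, 195 kept their sign within both flow cell A and flow cell B, a count to which the choice of these genes contributes.

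**Figure D1:**
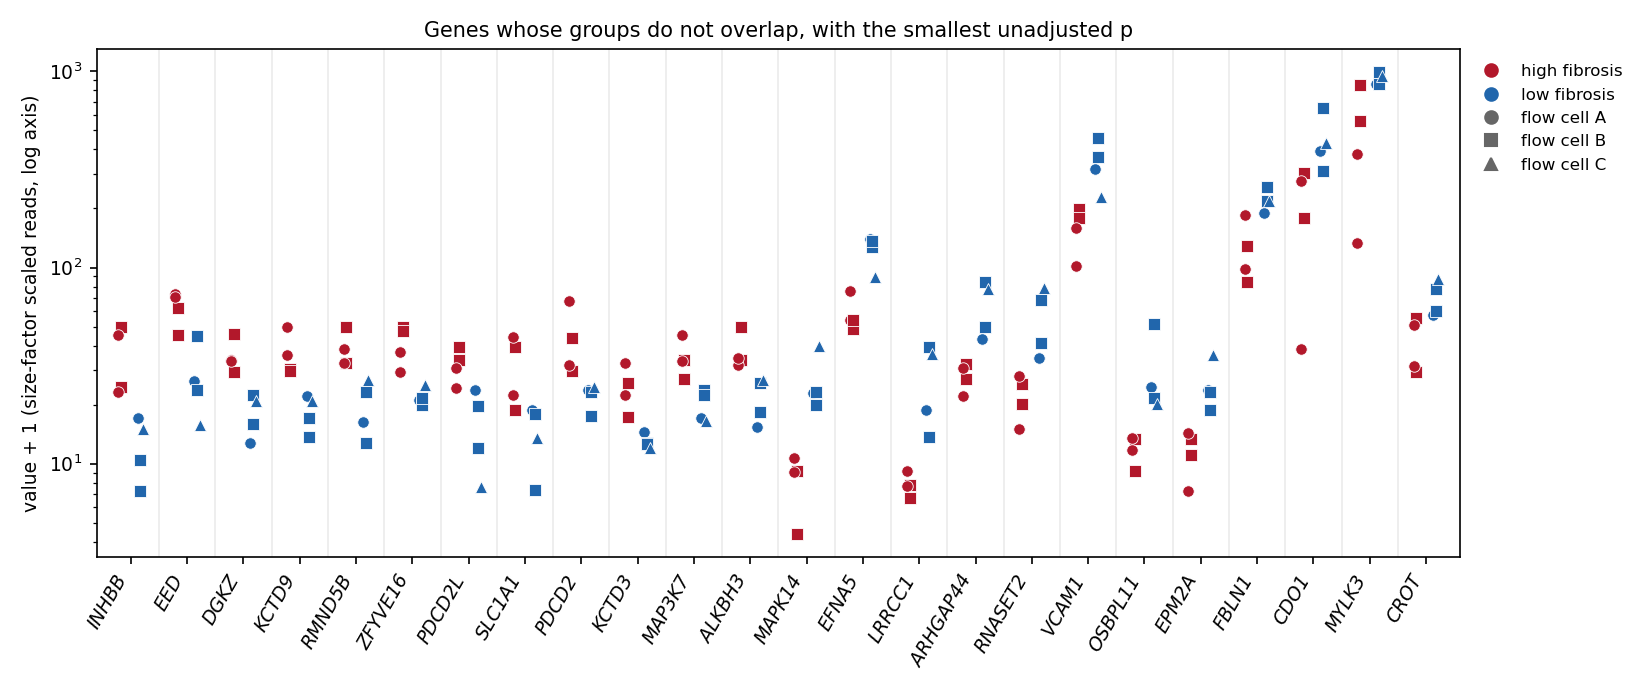
Scaled reads plus 1 (log axis) of the 24 genes with the smallest unadjusted p among genes whose groups do not overlap, 1 point a cat, red for high and blue for low fibrosis, with the flow cell as the shape. The first 12 genes were higher and the last 12 lower in each of the 4 cats with high fibrosis; MAPK14 shows the clearest gap, with 3.38 to 9.65 against 18.9 to 39.0.

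Collagen messenger RNA did not separate the groups. Of 17 fibrillar and network collagens, 12 passed the read filter, 10 with a difference above 0 and 2 below, with a median of 0.15 against -0.02 over all tested genes. None reached an unadjusted p under 0.05, and none had groups that did not overlap. The cats with high fibrosis lay at both ends of the range. COL3A1, a fibrillar collagen of loose connective tissue, had 50.7, 325, 30 and 525 scaled reads in cats 10, 11, 15 and 23 and 147, 71.7, 32.1 and 175 in cats 30, 35, 36 and 38. Cats 11 and 23 were above and cats 10 and 15 below most of the low fibrosis group, and the log2 difference was 0.53 with an SE of 0.82.

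COL1A2, a chain of the main scar collagen, had 56.4, 292, 13.6 and 591 scaled reads with high fibrosis and 221, 85.9, 32.9 and 196 with low fibrosis, a log2 difference of 0.04 (SE 0.97). Its partner chain COL1A1 had 12.4, 103, 2.72 and 69.8 against 48.0, 12.6, 4.45 and 16.9 (0.63, SE 0.94). Cats 15 and 23, which had the highest fibrosis percentages, gave the lowest and the highest COL1A2 value of the 8 cats. The smallest unadjusted p of the list, 0.218, was that of COL8A1, a short-chain network collagen, with 18, 76.7, 12.3 and 122 against 41.2, 7.09, 12.5 and 37.5. COL6A3, a microfibril collagen, was at 365 and 207 in cats 11 and 23, at 37.2 and 17.7 in cats 10 and 15, and between 52.9 and 99.3 with low fibrosis.

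The split of the high fibrosis group followed the flow cell, and cat 30 with low fibrosis lay on the side of its flow cell. The summed share of reads of the 17 collagens was 0.197%, 0.206% and 0.107% in cats 11, 23 and 30 of flow cell A. In cats 10, 15, 35 and 36 of flow cell B it was 0.0359%, 0.0138%, 0.0548% and 0.0223%, and in cat 38 of flow cell C 0.0731%. The median of the 12 collagens was 0.69 within flow cell A, with 11 above 0 and 1 below, and -0.41 within flow cell B, with 3 above 0 and 9 below. It was -0.13 without cat 11 and 0.57 without cats 11 and 15. The part of the flow cell in these medians was not tested. For COL3A1, the log2 difference on flow cell B minus that on flow cell A was -1.77 in limma (SE 0.77, unadjusted p = 0.0440, adjusted p = 1.0). For COL6A3 it was -3.05 (SE 0.74, limma unadjusted p = 0.00199, adjusted p = 1.0). Over all 8400 genes this interaction was called for 0, with 300 at an unadjusted p under 0.05.

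Matricellular and elastic fibre genes showed the same spread of cats. Of the 24 genes, 23 were tested, 14 with a difference above 0 and 9 below (median 0.21), and 3 (13.0%) were at an unadjusted p under 0.05, against 2.42% of all tested genes. SPP1, the matrix cytokine osteopontin, had 68.8, 407, 108 and 361 scaled reads with high fibrosis and 98.5, 62.2, 83.7 and 89.7 with low fibrosis. Cats 11 and 23 were far above the low fibrosis cats and cat 10 was within their range, and the log2 difference was 1.13 (SE 0.51, limma unadjusted p = 0.0438). The log2 difference of SPP1 without cat 11 was 0.75. EFEMP1, a fibulin of elastic tissue, had 5.64, 15.4, 2.72 and 17.5 against 15.2, 22.1, 16.9 and 47.8 (log2 difference -1.36, SE 0.56). FBLN1, described above, was also lower.

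Periostin (POSTN), a marker of activated fibroblasts, was at 42.5 and 94.0 scaled reads in cats 11 and 23 but at 3.38 and 0 in cats 10 and 15, against 0 to 17.6 with low fibrosis. Tenascin C (TNC), a protein of wound matrix, was at 709 in cat 11, 99.4 in cat 23, 5.64 in cat 10 and 0 in cat 15, against 0.735 to 84.2 with low fibrosis. CTGF, a matricellular protein induced by TGF-beta, had 301, 984, 336 and 1596 against 481, 121, 456 and 479, a log2 difference of 0.91 (SE 0.58). For fibronectin (FN1), 65.4, 681, 19.1 and 400.3 stood against 304, 124, 155 and 78.7 (-0.10, SE 0.89). In each of these 4 genes cats 11 and 23 had more than the other cats with high fibrosis.

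**Figure D2:**
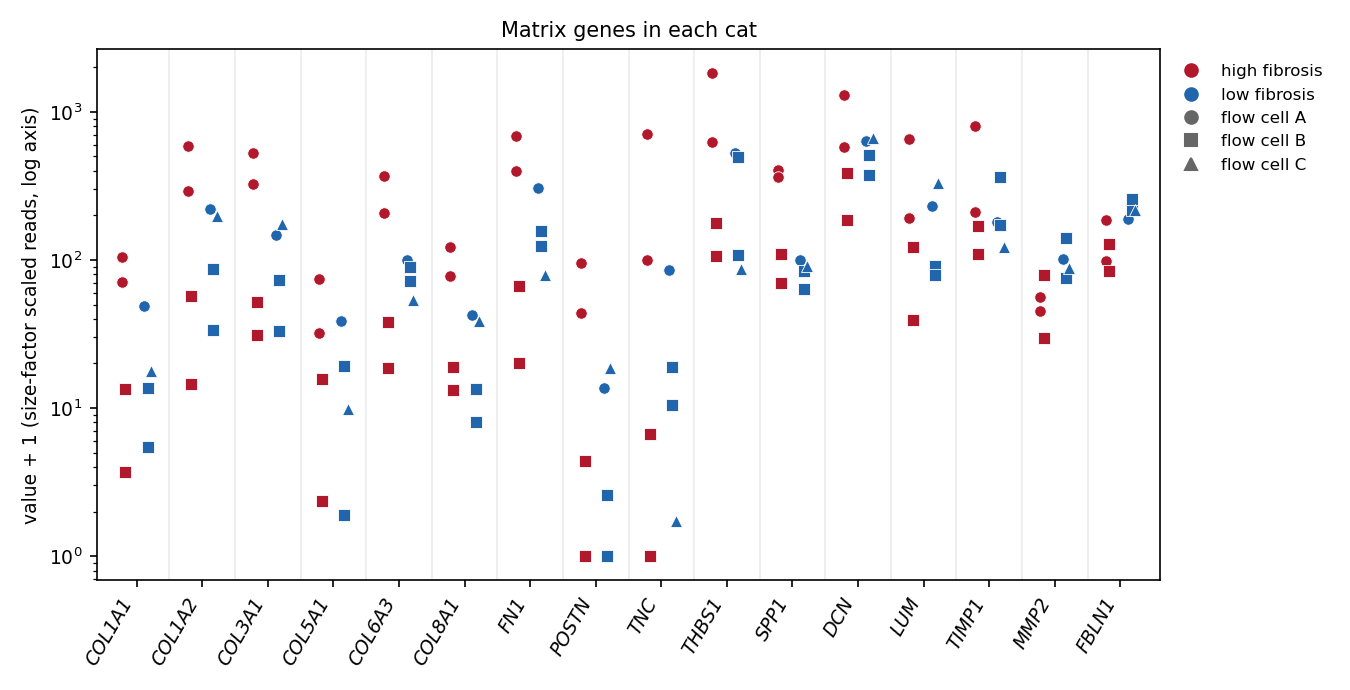
Scaled reads plus 1 (log axis) of 16 matrix genes in each cat, red for high and blue for low fibrosis, with the flow cell as the shape. For the collagens, FN1, POSTN and TNC the red circles (cats 11 and 23, flow cell A) lie above the red squares (cats 10 and 15, flow cell B); FBLN1 is the only gene shown whose groups do not overlap.

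The other matrix groups had medians close to that of all genes. Of 7 small proteoglycans tested, which bind and space collagen fibrils, 2 were above 0 and 5 below (median -0.03). Decorin (DCN) had 388, 580.1, 184 and 1308 scaled reads with high fibrosis and 638, 372, 512 and 666 with low fibrosis. Lumican (LUM) had 121, 191, 38.1 and 654 against 231, 89.8, 78.4 and 332. In both, cat 23 was the highest and cat 15 the lowest of the 8. The 14 collagen processing genes had 9 above 0 and 5 below (median 0.05). Among them, BMP1, the protease that cuts the C-terminal end of procollagen, had 15.8, 24.1, 20.4 and 14.8 against 4.21, 15, 2.67 and 21.3 (log2 difference 1.10, SE 0.56). The 14 basement membrane genes had 8 above 0 and 6 below (median 0.07), with LAMA2 at 0.26 (SE 0.32) and SPARC at 0.63 (SE 0.41).

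Among 16 matrix proteases and inhibitors, 6 were above 0 and 10 below (median -0.08, but 0.53 within flow cell A and -0.83 within flow cell B). MMP2, a gelatinase made by fibroblasts, was the only one at an unadjusted p under 0.05. It had 77.8, 43.9, 28.6 and 55.1 scaled reads with high fibrosis and 100.2, 140.2, 74.8 and 86.8 with low fibrosis. Cat 10 passed cat 36 by a little and the other cats kept apart, with a log2 difference of -1.0 (SE 0.34, limma unadjusted p = 0.0120), -1.01 within flow cell A and -1.10 within flow cell B. SERPINE2, an inhibitor of serine proteases in the matrix, had 104, 121, 117 and 114 against 149, 191, 203 and 127, with groups that did not overlap (-0.53, SE 0.25, limma unadjusted p = 0.0587). TIMP1, an inhibitor of matrix metalloproteinases, ranged from 108 to 806 with high and from 121 to 364 with low fibrosis.

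Of 27 genes of the TGF-beta pathway, 20 were tested, and 16 were above 0 and 4 below (median 0.34, against -0.02 over all tested genes). None was at an unadjusted p under 0.05. The median stayed above that of all genes by 0.14 to 0.55 over the 24 alternatives, while within flow cell A it was -0.02 with 9 genes above 0 and 11 below, and within flow cell B 0.22 with 13 and 7. Among ligands, TGFB1 had 10.1, 41.0, 31.3 and 16.1 scaled reads with high fibrosis and 27.8, 11.8, 16.9 and 19.1 with low fibrosis, a log2 difference of 0.24 (SE 0.45). Among receptors, TGFBR2 had a log2 difference of -0.03 (SE 0.35), TGFBR1 of 0.22 (SE 0.47), and the coreceptor endoglin (ENG), which endothelial cells carry, of 0.52 (SE 0.40). The 2 smallest unadjusted p belonged to genes that damp the pathway. The ubiquitin ligase SMURF2 had 74.4, 80.6, 36.8 and 49.7 against 49.7, 22.1, 37.4 and 36 (0.71, SE 0.35, limma unadjusted p = 0.0644), and the inhibitory SMAD7 had 15.8, 15.9, 25.9 and 9.40 against 13.5, 15, 4.45 and 6.62 (0.76, SE 0.47, unadjusted p = 0.131). The signal carriers SMAD2 and SMAD4 were at -0.49 (SE 0.52) and -0.26 (SE 0.41). INHBB, MAP3K7 and ZFYVE16, described above, are not in this list.

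Fibroblast markers did not separate the groups. Of 20, 17 were tested, 9 above 0 and 8 below (median 0.13), and their summed share of reads was 0.179% to 0.273% with high fibrosis and 0.191% to 0.284% with low fibrosis. GSN and VIM made up most of this share in each library, so it says little about the less abundant markers. Their log2 differences were -0.46 (SE 0.32) for GSN and 0.35 (SE 0.44) for VIM. PDGFRA, a receptor that defines fibroblasts, had 21.4, 26.1, 8.17 and 44.3 scaled reads against 22.7, 18.1, 16.0 and 22.1. FAP, a protease of activated fibroblasts, had 13.5, 50.7, 9.53 and 59.1 against 12.6, 8.66, 21.4 and 23.5. Cats 11 and 23 again had the higher values. Smooth muscle and myofibroblast genes (10 tested) had 7 above 0 and 3 below, with a median of 0.08. The most abundant members of this list were TPM1 and DES, and TPM1 is also in the sarcomere list. Calponin 1 (CNN1), of contractile smooth muscle, was at 259 in cat 11 and 0 in cat 15 and in cat 35.

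Endothelial markers had the highest median of the lists with at least 5 tested genes. Of 22, 19 were tested, 16 above 0 and 3 below, with a median of 0.45 and none at an unadjusted p under 0.05. It was 0.74 within flow cell B but -0.35 within flow cell A, where 6 were above 0 and 13 below, and 0.14 without cats 11 and 15. Their share of reads was 0.143% to 0.183% with high fibrosis and 0.0722% to 0.205% with low fibrosis, with cat 36 the lowest and cat 30 the highest of all 8. ERG, a transcription factor of endothelium, had 15.8, 16.9, 13.6 and 14.8 scaled reads against 9.26, 16.5, 2.67 and 5.15 (log2 difference 1.02, SE 0.50, limma unadjusted p = 0.0614). Von Willebrand factor (VWF), a clotting protein of vessel walls, had 455, 228, 923 and 360.0 against 311, 596, 165 and 288 (0.49, SE 0.45). VCAM1, which activated endothelium displays, was lower with high fibrosis, as given above, and is not in this list.

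Macrophage and monocyte markers had the lowest median. Of 21, 15 were tested, 2 above 0 and 13 below (median -0.60), with C1QA and C1QC (13.3%) at an unadjusted p under 0.05, against 2.42% of all tested genes, and no member whose groups were apart. C1QA, a chain of complement C1q that tissue macrophages make, had 33.8, 98.0, 25.9 and 37.6 scaled reads with high fibrosis and 58.1, 296, 53.4 and 97.8 with low fibrosis (log2 difference -1.18, SE 0.54, limma unadjusted p = 0.0487). C1QC had 16.9, 42.5, 17.7 and 17.5 against 34.5, 196, 26.7 and 41.9 (-1.24, SE 0.56). In both genes cat 35 was the highest of all, and without it the log2 difference of C1QA was -0.65 and the log2 difference of C1QC was -0.61. The scavenger receptor CD163 was at 388 in cat 35 and between 17.7 and 122 in the other 7 cats. Without cat 35 the list's median was -0.04, with 7 above 0 and 8 below. The median was 0.36 within flow cell A and -1.75 within flow cell B. With age as a covariate it lay 0.02 above that of all genes, but that model also left out cat 35, whose age is not recorded. Of the defining markers, LYZ was at 0 in all 8 libraries. The summed share was 0.0219% to 0.0904% with high and 0.0291% to 0.194% with low fibrosis.

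Other cell types gave few reads. Of 22 lymphocyte markers only 1, JCHAIN, passed the filter and 5 were at 0 in all 8 libraries. The neutrophil genes S100A8 and S100A9 were at 447 and 637 scaled reads in cat 35, 125 and 155 in cat 11, and between 3.68 and 79.0 in the other 6 cats. Pericyte, adipocyte and nerve markers had 5, 4 and 4 tested genes with medians of -0.02, -0.16 and 0.13. One mesothelial or epicardial marker was tested, WT1, at 12.4, 9.17, 30 and 20.1 against 4.21, 3.15, 10.7 and 15.4 (log2 difference 1.11, SE 0.54). The glycophorin GYPC, which red blood cells share with other cells, was at -0.49 (SE 0.40). Genes of atrial cardiomyocytes varied by cat and not by group. MYL7, the atrial myosin light chain, was at 54.1, 0, 110.3 and 5.37 with high fibrosis and at 34.5, 617, 32.1 and 5.88 with low fibrosis. The atrial peptide gene NPPA, which stressed ventricles also make, was at 818, 1075, 218 and 465 against 293, 2906, 233 and 119 (0.48, SE 0.81). Cat 35 was the highest for both. Skeletal muscle genes (5 tested) had a median of 0.15. Their most abundant members, CKM and ACTA1, are also in the lists of ventricular cardiomyocyte and cardiac stress genes.

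Ion channel genes were the cardiac list that stood lowest. These genes carry the currents of the heart's action potential. Of 36 named, 35 were in the table and 22 were tested, of which 4 were above 0 and 18 below (median -0.45, against -0.02 over all tested genes). At an unadjusted p under 0.05 there were 3 (13.6%), all lower, against 2.42% of all tested genes and 1.42% for lower genes. The list was made with results of these data known, so this share is a description and no test. The median stayed below that of all genes in all 24 alternatives, by 0.26 to 0.73, and was -0.56 within flow cell A and -0.29 within flow cell B. Without cat 11 it was -0.27, with 5 above 0 and 17 below. The list was also scored in each cat, as its average log2 value less the average over all tested genes. This score was 0.31, -0.49, 0.41 and 0.14 in cats 10, 11, 15 and 23 and 0.57, 0.61, 0.39 and 0.58 in cats 30, 35, 36 and 38. Cat 15 was just above cat 36, so the groups met, and cat 11 was far below the others.

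KCNJ5, a subunit of the acetylcholine-gated potassium channel, had 6.76, 0.965, 9.53 and 1.34 scaled reads with high fibrosis and 19.4, 10.2, 13.4 and 12.5 with low fibrosis. The groups did not overlap, and the log2 difference was -1.72 (SE 0.62, limma unadjusted p = 0.0164), -3.25 within flow cell A and -0.49 within flow cell B. CACNB2, the beta subunit of the L-type calcium channel, had 42.8, 21.7, 39.5 and 28.2 against 54.7, 44.9, 65.0 and 56.6, also without overlap (-0.76, SE 0.30, limma unadjusted p = 0.0267). CACNA1C, the pore of the same channel, had 41.7, 7.24, 34.0 and 14.8 against 40.4, 55.9, 29.4 and 41.2. Cats 10 and 15 were within the low fibrosis range and cats 11 and 23 below it (-0.99, SE 0.48, limma unadjusted p = 0.0614, -1.86 within flow cell A and -0.10 within flow cell B). CACNA1G, a T-type calcium channel, had 19.2, 8.69, 8.17 and 4.03 against 10.1, 55.9, 19.6 and 18.4 (-1.20, SE 0.55, limma unadjusted p = 0.0488).

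Several potassium channel genes were also low in cat 11. KCNIP2, a partner of the transient outward channel, had 37.2, 8.69, 123 and 17.5 scaled reads with high fibrosis and 59.8, 77.2, 43.6 and 238 with low fibrosis (log2 difference -1.48, SE 0.70). KCNJ2, the inward rectifier, had 37.2, 6.27, 24.5 and 9.40 against 25.3, 26.0, 15.1 and 29.4 (-0.56, SE 0.50). KCNH2, of the rapid delayed rectifier, had 63.1, 35.7, 88.5 and 60.4 against 76.6, 91.4, 89.9 and 88.2 (-0.54, SE 0.30). FGF13, KCNK3 and KCNQ1 were above 0, with log2 differences of 0.24, 0.17 and 0.03. SCN3A, a sodium channel of neurons, did not pass the filter. It was at 0, 0.483, 0 and 0 scaled reads against 2.53, 3.15, 0.890 and 2.94, and 0 reads in a library leave room for up to 3 reads, an upper limit on counting error only.

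Calcium handling genes had no common direction. Of 26, 23 were tested, 10 above 0 and 13 below (median -0.15, which reached 0.10 within flow cell B). ATP2A2, the SERCA2 pump that refills the sarcoplasmic reticulum, had 2723, 624, 2174 and 2111 scaled reads with high fibrosis and 3505, 4012, 2939 and 3428 with low fibrosis. The groups did not overlap, though cat 10 came near cat 36, and the log2 difference was -1.05 (SE 0.42, limma unadjusted p = 0.0286), -1.61 within flow cell A and -0.50 within flow cell B. Cat 11 was far below the next lowest value, and the log2 difference of ATP2A2 without cat 11 was -0.57. ASPH, whose products include junctin and an aspartyl hydroxylase, was the reverse, with 110.5, 109, 123 and 134 against 102, 68.5, 40.1 and 91.9 (0.73, SE 0.31, limma unadjusted p = 0.0387).

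RYR2, the calcium release channel, had 719, 361, 696 and 555 scaled reads with high fibrosis and 942, 693, 755 and 1045 with low fibrosis. Cats 10 and 15 lay by the lowest cat with low fibrosis, and the log2 difference was -0.59 (SE 0.29, limma unadjusted p = 0.0674), -1.07 within flow cell A and -0.03 within flow cell B. Phospholamban (PLN), the brake on SERCA2, had 4245, 1294, 4973 and 2618 against 4326, 3282, 4437 and 4444 (-0.49, SE 0.41, -1.23 within flow cell A and 0.27 within flow cell B). HRC, a calcium-binding protein of the reticulum, was at 14.5 in cat 11 and between 91.3 and 140.2 in the other 7 cats. Calsequestrin 2 (CASQ2), which stores calcium there, did not follow it, with 316, 293, 320.0 and 240.4 against 263, 182, 305 and 232.

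**Figure D3:**
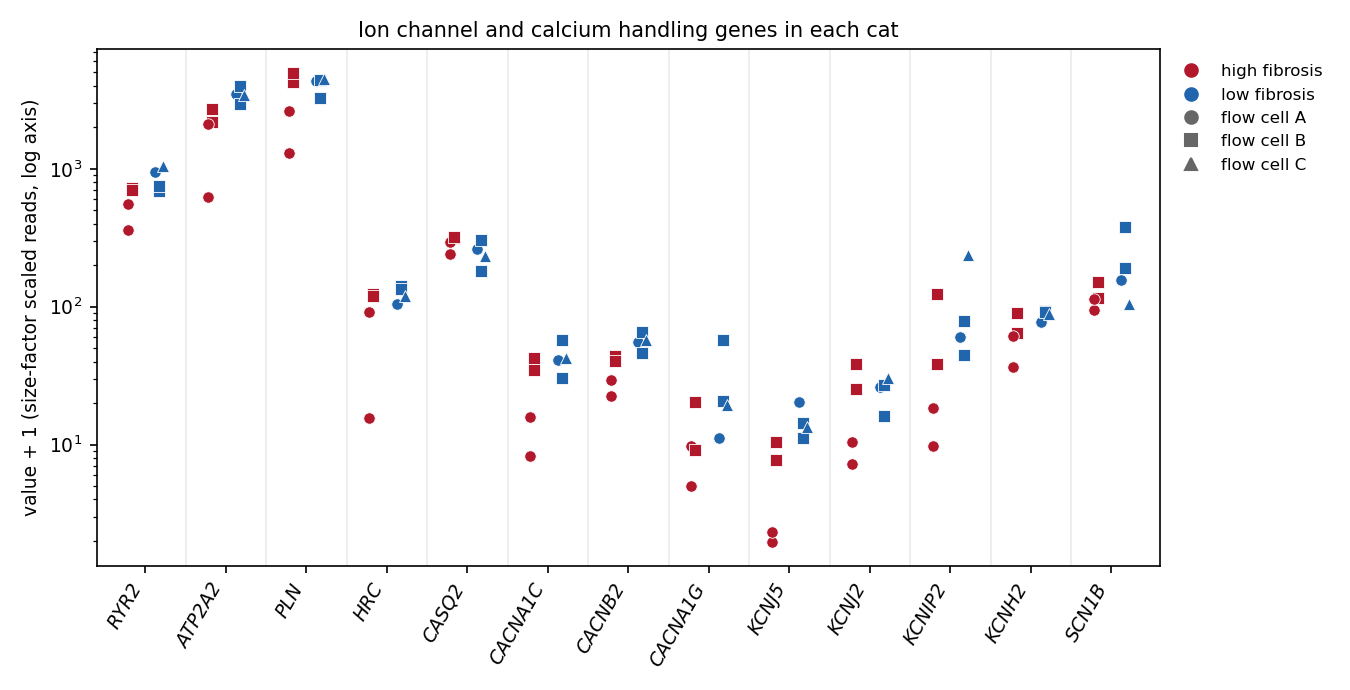
Scaled reads plus 1 (log axis) of 13 ion channel and calcium handling genes in each cat, red for high and blue for low fibrosis, with the flow cell as the shape. ATP2A2, CACNB2 and KCNJ5 do not overlap between the groups, and for most genes the lowest red circle is cat 11.

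Sarcomere genes (29 tested, 12 above 0 and 17 below, median -0.05) and intercalated disc genes (20 tested, 10 above 0 and 10 below, median 0.00) were centred on all genes. Among thick filament genes, MYH6, the alpha myosin heavy chain, varied most, with 355, 19.8, 393 and 146 scaled reads with high fibrosis and 60.6, 219.8, 148 and 143 with low fibrosis (log2 difference 0.14, SE 0.77). MYBPC3, myosin-binding protein C, was at -0.78 (SE 0.54). Desmoplakin (DSP), which anchors desmin to the disc, had 237, 89.8, 230.1 and 265 against 337, 268, 201 and 249 (-0.45, SE 0.35), and the desmosomal cadherin DSG2 had 41.7, 69.0, 44.9 and 39.0 against 37.9, 27.6, 35.6 and 41.2 (0.42, SE 0.29). Ventricular cardiomyocyte genes as a list (17 tested) had 3 above 0 and 14 below with a median of -0.28, which was -0.05 without cat 11 and -0.01 within flow cell B. ATP2A2 was the only one of them at an unadjusted p under 0.05.

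Genes of cardiac stress had 13 above 0 and 5 below among 18 tested (median 0.17, 0.82 within flow cell A and -0.18 within flow cell B). None was at an unadjusted p under 0.05. NPPB, the gene of brain natriuretic peptide, had 1784, 6318, 320.0 and 4032 scaled reads with high fibrosis and 1364, 830.3, 1877 and 1072 with low fibrosis. Cat 11 was the highest and cat 15 the lowest of all 8 cats, although both were in the high fibrosis group and both had congestive HF (log2 difference 0.67, SE 0.72). ANKRD1, a stretch-responsive nuclear cofactor, had 3113, 6985, 2081 and 6304 against 2322, 1209.9, 3141 and 4128 (0.74, SE 0.47). XIRP2, an actin-binding protein of the intercalated disc, had 41.7, 82.5, 17.7 and 60.4 against 37.9, 7.88, 30.3 and 16.9 (1.10, SE 0.53, limma unadjusted p = 0.0602).

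Genes of energy supply showed many small differences of one sign that reversed between flow cells. For complex I of the respiratory chain, 37 subunits were tested, 1 above 0 and 36 below, with a median of -0.16. Within flow cell B, however, 33 were above 0 and 4 below (median 0.18), and without cat 11 there were 28 above and 9 below (median 0.10). The scores were 4.17, 3.00, 4.18 and 3.52 in cats 10, 11, 15 and 23 and 3.58, 3.78, 4.18 and 3.88 in cats 30, 35, 36 and 38, so cat 11 was the lowest and cats 10 and 15 were level with cat 36. NDUFAB1, the mitochondrial acyl carrier protein, had the smallest unadjusted p (0.0766), with 28.2, 17.4, 32.7 and 17.5 scaled reads against 31.1, 30.7, 34.7 and 53.7. All subunits were read from the same 8 libraries, so these counts are not counts of independent genes.

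Of 44 named genes of respiratory complexes II to V, 21 were in the table and 20 were tested. Those tested belong to complex II and ATP synthase, so complexes III and IV were not covered. All 20 were below 0 (median -0.21), but 13 were above 0 within flow cell B (median 0.09). Fatty acid oxidation genes had 4 above 0 and 23 below among 27 (median -0.15), and 22 above and 5 below within flow cell B. Glycolysis and TCA cycle genes had 6 above 0 and 27 below among 33 (median -0.16, and 0.06 within flow cell B). Creatine kinase and adenylate kinase genes had 3 above 0 and 9 below among 12 (median -0.23, and 0.02 within flow cell B). None of these genes was at an unadjusted p under 0.05. The fatty acid carrier FABP3 had 5671, 2001, 6642 and 5452 scaled reads against 4011, 5656, 6185 and 8016 (log2 difference -0.36, SE 0.41), and citrate synthase (CS) had 464, 280.4, 466 and 490.3 against 531, 574, 458 and 598 (-0.37, SE 0.27).

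Genes of protein supply and folding lay near all genes. Ribosomal protein genes (80 tested) had 48 above 0 and 32 below with a median of 0.02, which came from 58 above and 22 below within flow cell A and 5 above and 75 below within flow cell B. Translation factors (35 tested) had a median of 0.03, proteasome subunits (34 tested) of 0.05 and chaperones (40 tested) of 0.11, with none at an unadjusted p under 0.05. The initiation scaffold EIF4G1 and the HSP40 cochaperone DNAJA2 had groups that did not overlap, with log2 differences of -0.49 (SE 0.27) and -0.20 (SE 0.23).

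Complement and acute phase genes (12 tested) had 3 above 0 and 9 below (median -0.49, and -0.10 without cat 35). Clusterin (CLU), a secreted chaperone, was at 2156 scaled reads in cat 35 and between 75.0 and 276 in the other 7. Interferon response genes (16 tested) had 10 above 0 and 6 below (median 0.13). Among them IFI44L had 7.89, 15, 16.3 and 21.5 against 6.73, 5.51, 1.78 and 11.8 (log2 difference 1.24, SE 0.54, limma unadjusted p = 0.0396). Immediate early genes (21 tested), which respond within minutes to stress and to handling of tissue, had 17 above 0 and 4 below, with a median of 0.28 that was 0.63 within flow cell A and -0.33 within flow cell B. CYR61, a matricellular gene in both lists, had 72.1, 367, 229 and 271 against 121, 44.1, 148 and 132 (0.99, SE 0.50). Haemostasis genes (19 tested) had a median of 0.24 (0.57 within flow cell A and -0.25 within flow cell B). Hypoxia genes (17 tested) had a median of -0.03, and KDM3A, a histone demethylase induced by low oxygen, had 18, 14, 15 and 16.1 against 30.3, 24.4, 25.8 and 22.8, without overlap (-0.68, SE 0.30, limma unadjusted p = 0.0421). Of 21 antigen presentation genes, 9 were in the table and 6 were tested, with a median of 0.00.

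Over all lists together, 13 of 693 tested genes (1.88%) were at an unadjusted p under 0.05, against 2.42% of all tested genes. Of these, 3 were higher (SPP1, ASPH and IFI44L) and 10 lower (KCNJ5, CACNB2, CACNA1G, ATP2A2, MMP2, FBLN1, EFEMP1, C1QA, C1QC and KDM3A). This share varied between the lists. It was 13.6% for ion channels, 13.3% for macrophage markers and 13.0% for matricellular genes, which hold 2 or 3 such genes each, and 0 in each of the energy and protein lists. The lists were made with results of these data known, and no test between lists was made.

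**Figure D4:**
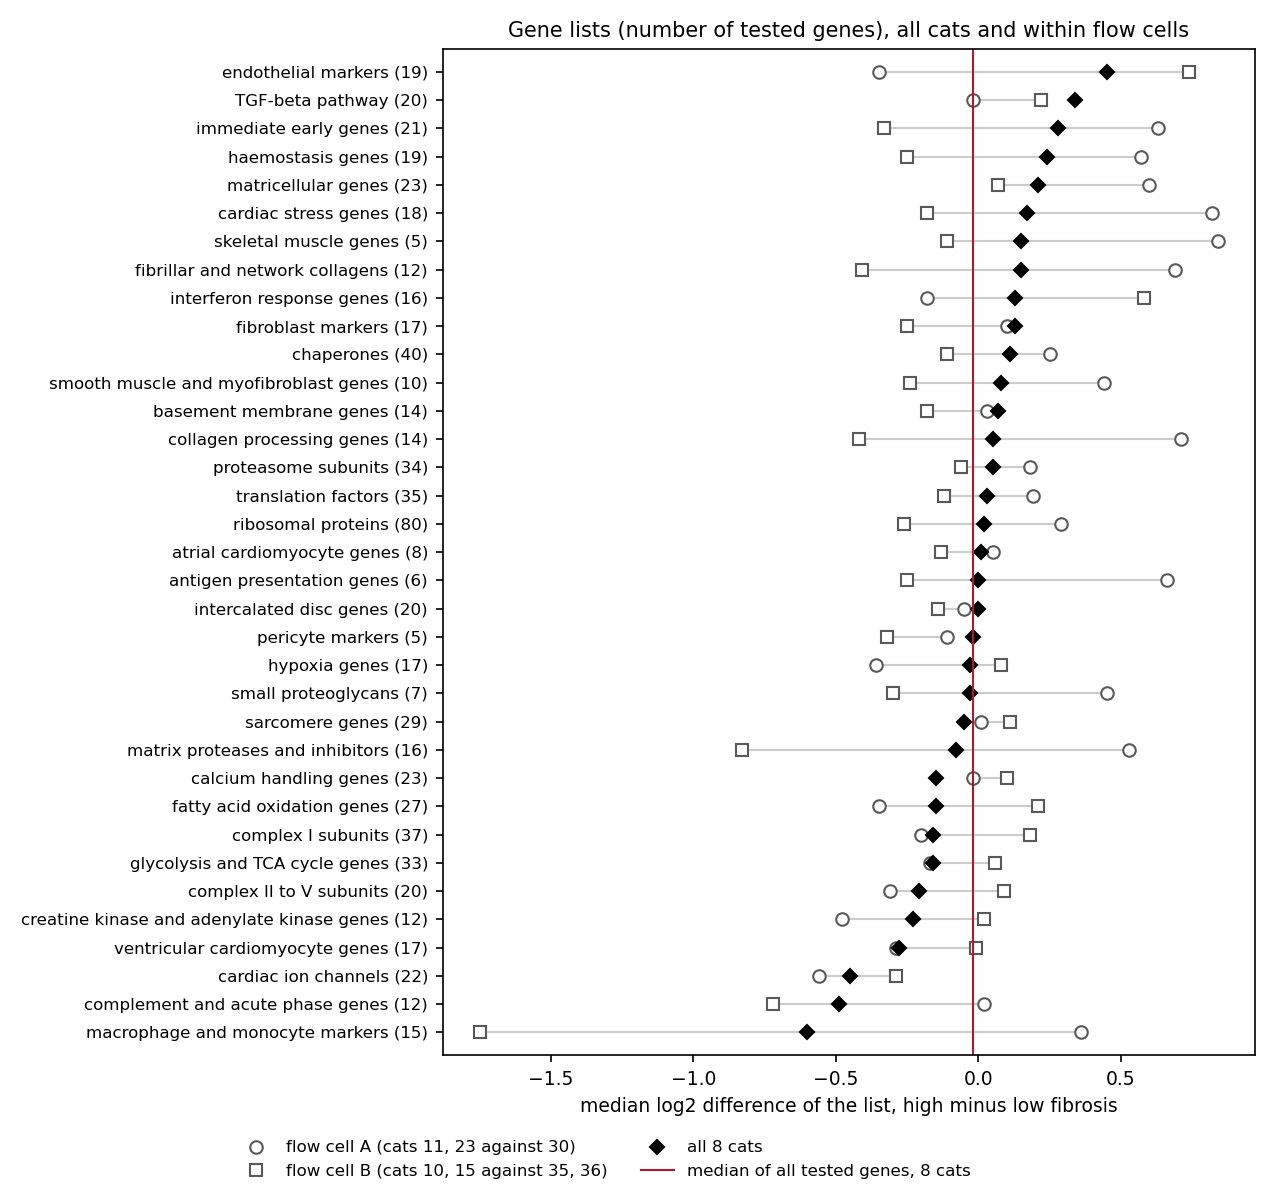
Median log2 difference, high minus low fibrosis, of each list with at least 5 tested genes (number in brackets): diamonds for all 8 cats, circles within flow cell A and squares within flow cell B, with the median of all tested genes (-0.02) as the red line. Circle and square lie on opposite sides of 0 for most lists, among them collagens (0.69 and -0.41) and complex I (-0.20 and 0.18), and on the same side for ion channels (-0.56 and -0.29).

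**Figure D5:**
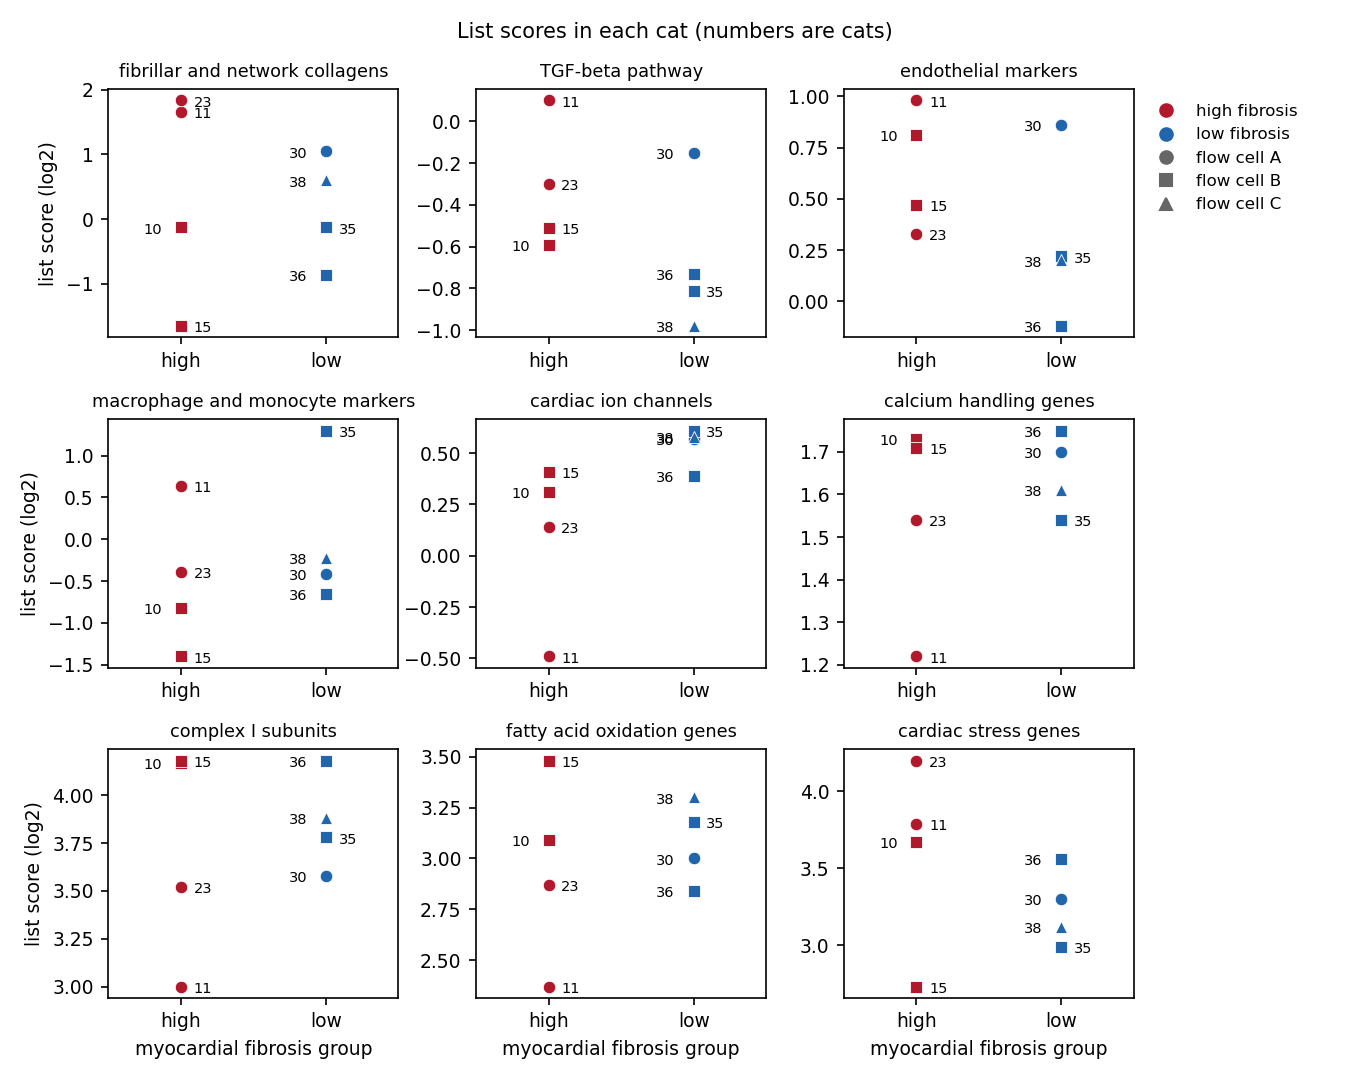
Score of 9 lists in each cat (average log2 value less the average over all tested genes), red for high and blue for low fibrosis, with cat numbers beside the points and the flow cell as the shape. Cats 11 and 15, both with high fibrosis, are the lowest and highest for fatty acid oxidation (2.37 and 3.48), and for collagens and cardiac stress genes cat 15 is the lowest and cat 23 the highest; in the ion channel panel 3 of the 4 cats with high fibrosis lie below every cat with low fibrosis.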

How the data were processed

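Post mortem left ventricle of 12 cats was sequenced as native RNA (Nanopore, kit SQK-RNA002), 1 library a cat; 8 were compared, 4 with high and 4 with low myocardial fibrosis. Base calling (Guppy), a quality filter, alignment to the felCat9 cat genome (Minimap2) and counting per gene (FeatureCounts) were done by the authors; the versions of Minimap2 and FeatureCounts are not given in the sources used here. The deposited table holds a signal per gene, which is the read count divided by 1 size factor per library. Dividing each column by its smallest positive value gave whole reads for 100% of values (tolerance 1e-06). The reads on genes were 789257 to 2263110 per library.

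Of 30785 listed genes, 8400 with at least 10 recovered reads in at least 3 of the 8 libraries were fitted with limma 3.58.1 (trend) on log2(scaled reads + 1), 4 against 4, unpaired, with Benjamini-Hochberg adjustment over all 8400. The pseudocount of 1 understates the differences of low genes. Flow cells A, B and C stand for the 3 sequencing runs in the library names. Within-flow-cell values are differences of means, and a model with group, flow cell and their product over the 7 libraries of flow cells A and B gave the interaction. Alternatives were edgeR 4.0.16 and DESeq2 1.42.0 on the recovered reads, and other scalings, pseudocounts and filters. Flow cell, outcome or age as a covariate, and fewer libraries, were also used. The model with age left out cat 35, whose age is not recorded. Exact permutation tests used scipy 1.17.1 on Python 3.11.15, and R was 4.3.3. The fitting script was tested on simulated data.

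The groups and the 42 gene lists were chosen with earlier results of these data known. Named genes were the 12 in each direction with the smallest unadjusted p among genes with a symbol, at least 20 reads on average and groups that do not overlap, genes named in the text of the study, and in each list the 2 members with the highest mean value and the 2 with the smallest unadjusted p. Other members named here were chosen after their values were seen. The table names CCN1 and CCN2 as CYR61 and CTGF. All p-values measure the spread between single cats. The 13 mitochondrially encoded genes are listed at 0 in all 8 libraries and were not tested. How reads on overlapping or near-identical genes were assigned is not given in the sources used here, which leaves ribosomal protein genes uncertain. From the study's qPCR set, 1 gene was not analysed here.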

Additional observations from a re-analysis of the deposited data

Results flagged for a closer look

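The highest and lowest cat of each group of 4 was compared with the nearest other cat, and a value was picked out where that gap filled most of the group's range (above Dixon's 95% limit). Of 288 groups examined, 24 gave such a value. Chance alone gives about 1 in 20 for normally distributed values. Gene values were compared as scaled reads without a log, and some genes were named after their values were seen, so the chance rate here can be higher. The values come from shared libraries, so they are not independent.

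Cat 35 gave 11 of the values, all with low fibrosis. It was high for the macrophage and neutrophil genes C1QC (196), CD163 (388), S100A8 (447) and S100A9 (637), for clusterin (CLU, 2156), for the atrial genes NPPA (2906) and MYL7 (617), for OSBPL11 (50.4 scaled reads), and for the complement and acute phase score (1.08, against -0.469 to -0.370 in the other 3 cats). It was low for PLN (3282) and CTGF (121). Age and sex were not recorded for this cat, and no value measured here separates a property of its heart from one of its library.

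Cat 11 stood out within the high fibrosis group for C1QA (98.0), C1QC (42.5), TIMP1 (806), TNC (709) and TGFBR1 (37.6 scaled reads), all high, and for citrate synthase (CS, 280.4), which was low. SCN3A was at 0.483 in this cat and at 0 in the other 3, a difference of 1 read. Cat 15 was high for ALKBH3 (49.0). In the low fibrosis group, cat 38 was high for MAPK14 (39.0) and JCHAIN (28.7), cat 30 was high for CNN1 (47.1), and cat 36 was high for LAMA2 (777) and low for the interferon response score (-1.78, against -0.823 to -0.648).

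For 9 of the named genes, every comparison of a cat with high fibrosis and a cat with low fibrosis went 1 way on flow cell A and the other way on flow cell B. How often this happens over all tested genes was not counted. With 2 cats against 1 on flow cell A and 2 against 2 on flow cell B, unrelated values also give such a pattern. The log2 differences on flow cells A and B were 1.46 and -1.59 for COL6A3, 0.78 and -1.94 for FN1, and 1.65 and -2.44 for TNC. They were 1.20 and -0.88 for TIMP1, 0.11 and -2.03 for EFEMP1, and 1.01 and -2.29 for CD163. For CLU, KCNQ1 and SMAD2 they were 0.83 and -1.70, 1.11 and -0.56, and 0.47 and -1.50. With 2 or fewer cats of a group on a flow cell, these are descriptions: the interaction fitted by limma over all genes had an adjusted p of 1.0 for each.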

How the results depend on the processing

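Under each of 24 alternatives, 0 genes passed an adjusted p under 0.05. The number at an unadjusted p under 0.05 was 203 and lay within 1.5 times of it under 18 alternatives, but it was 512 with every gene that had a read, 78 with a mean of at least 30 reads, 123 with congestive HF only, 310 with flow cell B only and 353 without cats 15 and 23. Fewer or more genes tested, or fewer cats, belong to these settings by construction. Leaving out 1 cat at a time gave 173 (without cat 36) to 416 (without cat 15). Leaving out cats 11 and 15 together, an alternative chosen after seeing the data, gave 292. The 24 genes described first kept their sign in all 567 values that could be computed, which their choice by these groups makes likely. Of 41 lists with a tested gene, 6 kept their side of the median of all genes under every alternative that could be computed. These were TGF-beta pathway, endothelial markers, cardiac ion channels, complement and acute phase genes, and a pair of lists with 1 tested gene each. Flow cell A alone was not among the alternatives. Within it the named lists had medians of -0.02, -0.35, -0.56 and 0.02 in this order, against 0.02 over all genes, so only ion channels clearly kept their side. For the other 35 at least 1 alternative turned the sign. The cause was not tested. The interaction of fibrosis group with flow cell was also chosen after seeing the data. No paired analysis was possible because the groups share no replicate numbers: each cat is in 1 group. Depth limits the low genes: the median tested gene had 30 reads per library, and 0 reads leave room for up to 3.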

Other observations

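The 4 libraries in neither group, labelled as cats 31, 37, 29 and 22, give levels for the genes whose groups did not overlap. The identity of the last pair, labelled 29 and 22, is in doubt, since the study names other cats as sequenced. The 4 libraries have no fibrosis group here, and their values are listed as a description. INHBB had 28.7, 31.5, 20 and 29.7 scaled reads in these cats, so 3 of the 4 were at or above the lowest cat with high fibrosis. RNASET2, lower with high fibrosis in the groups, had 15.2, 45.8, 44.3 and 62.1, and 3 of these were at or above the lowest cat with low fibrosis. VCAM1 had 164, 127, 70.9 and 79.7, all within or below the range of the high fibrosis group. MYLK3 had 148, 461, 503 and 396, and CDO1 had 132, 219, 234 and 159, again at or below the highest cat with high fibrosis. EED had 34.3, 37.2, 26.6 and 18.9, all at or below the highest cat with low fibrosis. MAPK14 spread over both ranges, with 2.39, 18.6, 14.4 and 40.5.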
